A study of Mus musculus with 12 samples.

Results

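The muscle miRNAs Mir-1, Mir-133 and Mir-499 were followed in small RNA libraries from the hippocampus of 12 male wild-type C57BL/6J mice, a standard inbred strain. Members were all rows of the deposited table whose first name is Mir-1, Mir-133 or Mir-499, on either arm, which gave 4 of 513 rows. They are the 3p arm shared by Mir-1-P1 and Mir-1-P2 (called Mir-1 3p here), Mir-1-P3_3p, the 3p arm shared by all Mir-133 genes (called Mir-133 3p here) and Mir-499_5p. The names follow MirGeneDB, which numbers paralogous genes with P and marks the passenger strand of a hairpin with an asterisk. None of the 4 carries an asterisk, so all are guide arms.

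The 6 mice of the exercised lineage were the F2 generation, through the male line, of grandfathers (F0) that had exercised. The 6 mice of the sedentary lineage descended in the same way from sedentary grandfathers. The labels name exercise of the grandfathers only, and no treatment of the mice themselves. The series compares these lineages to ask whether a grandfather's exercise is reflected in the hippocampal miRNAs of his grandsons.

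MiRNAs are short RNAs that are cut from hairpins and bind, chiefly through a seed near their 5′ end, to messenger RNAs whose use they reduce. Mir-1 and Mir-133 are known from heart and skeletal muscle, where neighbouring genes are transcribed together and act in muscle differentiation and growth. Mir-1-P3 is taken here to be the gene usually called Mir206, and the Mir-133 genes to be Mir133a and Mir133b copies. This match follows MirGeneDB naming and is not given in the deposited table, and the sequences and positions below rest on it. Mir206 is known from skeletal muscle and the neuromuscular junction and has been linked in brain to the growth factor gene Bdnf. Mir-499 is transcribed with Myh7b, a myosin heavy chain gene, and is known for its part in the slow muscle fibre programme. These miRNAs are best known as markers of striated muscle. Which cells they came from in these libraries was not tested.

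The measured strands fall into 3 unrelated seeds, shown here because the seed sets which messenger RNAs a miRNA can bind. The mature sequences are those of RefSeq on GRCm38.p6, 5′ to 3′, with the seed (bases 2 to 8) in capitals. Of the 4 rows, 3 were matched in the sequence table: Mir-1-P3_3p by miR-206-3p, the Mir-133 row by miR-133b-3p and Mir-499_5p by miR-499-5p. The shared arm of Mir-1-P1 and Mir-1-P2 is named only.
miR-206-3p (chr1:20679055-20679076, plus strand): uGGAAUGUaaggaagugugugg
miR-133b-3p (chr1:20682834-20682855, plus strand): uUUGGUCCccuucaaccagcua
miR-499-5p (chr2:155622893-155622913, plus strand): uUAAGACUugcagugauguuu

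Mir-1 and Mir-206 are known to share a seed. The seeds of miR-206-3p and miR-133b-3p agreed at 1 of 7 bases, and those of miR-206-3p and miR-499-5p at 2 of 7. Those of miR-133b-3p and miR-499-5p agreed at 3 of 7. Among the 1738 mature miRNAs of the sequence table, 2 others carried the seed of miR-206-3p (miR-6349 and miR-6382), and 0 others carried that of miR-133b-3p or of miR-499-5p. The cardiac miRNAs miR-208a-3p and miR-208b-3p, also from introns of myosin heavy chain genes, each matched the seed of miR-499-5p at 6 of 7 bases. The measured strands are of near equal length, 22 bases for miR-206-3p and miR-133b-3p and 21 for miR-499-5p. The length of Mir-1 3p is not given here. Counts of different miRNAs are compared as counted, and how far they stand for equal numbers of molecules was not tested.

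The hairpins show which side of each precursor was measured, with the measured strand in capitals. It lies in the 3′ side of the Mir206 and Mir133b hairpins and in the 5′ side of the Mir499 hairpin.
Mir206 (73 bases): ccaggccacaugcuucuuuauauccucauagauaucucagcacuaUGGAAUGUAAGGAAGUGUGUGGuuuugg
Mir133b (119 bases): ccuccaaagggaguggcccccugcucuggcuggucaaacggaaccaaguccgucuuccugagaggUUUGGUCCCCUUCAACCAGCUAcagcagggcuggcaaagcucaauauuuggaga
Mir499 (79 bases): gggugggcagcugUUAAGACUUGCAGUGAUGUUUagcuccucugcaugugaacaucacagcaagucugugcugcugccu

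In the GENCODE annotation of mm10, Mir206 (chromosome 1, 20679010 to 20679082) and Mir133b (chromosome 1, 20682769 to 20682887) lie 3686 bases apart in exons of the same long noncoding RNA gene, Gm28653. Mir1a-1 (chromosome 2, 180389048 to 180389124) and Mir133a-2 (chromosome 2, 180398379 to 180398482) lie 9254 bases apart on the plus strand and overlap no other annotated gene. Mir499 (chromosome 2, 155622880 to 155622958) lies in an intron of Myh7b, on the same strand. The table gives 1 row for all Mir-133 genes, so the copy beside Mir206 and the copies beside Mir-1 genes cannot be told apart.

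Levels are given as normalized counts, that is, reads after division by the size factor of the library. Depth was 6862623 to 10219856 reads per library on all 513 rows. The neuronal Mir-9, Mir-124, Mir-128 and Mir-218 arms were high and summed to between 2178927 and 3722347 normalized counts. Mir-9-P1_5p was the most abundant of them, with a mean of 2094000 over the 12 libraries. Library 5 of the sedentary lineage stood apart outside the muscle arms, with 14946 normalized counts of the epithelial Mir-8-P1a_3p against 1304 to 3537 in the other 11 libraries. That arm was chosen after its values were seen. The sample codes given by the submitters begin with 1 of 4 stems, each held by 3 libraries: R31 or R41 for exercised-lineage mice and S11 or S41 for sedentary-lineage mice. What a stem means is not stated. A stem holds mice of 1 lineage only, so a difference between stems and a difference between lineages cannot be told apart. If mice of a stem are related, the 6 mice of a lineage are not independent.

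Mir-1 3p was by far the most abundant muscle arm in every library. It stood at 4167 normalized counts on average over the 12 libraries and ranked 94 of 513 rows. Mir-499_5p followed with 161 (rank 294), Mir-1-P3_3p with 66.2 (rank 349) and Mir-133 3p with 52.1 (rank 361). All 4 passed the filter of a mean of at least 10 and were among the 474 arms tested. Together they made up 397 to 927 ppm (counts per 1000000 normalized counts of the library), and Mir-1 3p alone supplied 90.0% to 95.1% of that sum. Mir-1 3p exceeded Mir-133 3p in 12 of 12 libraries, by 58.8-fold to 139-fold with a median of 82.6-fold. Mir-499_5p was above Mir-133 3p in 12 of 12 libraries (median 3.86-fold) and above Mir-1-P3_3p in 11 of 12. Mir-1-P3_3p was above Mir-133 3p in 8 of 12, so the order of these lowest arms was not the same in all libraries.

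Mir-1 3p, the main miRNA of heart and skeletal muscle, ran from 2788 to 5427 normalized counts in the exercised lineage with a median of 3948. In the sedentary lineage it ran from 3023 to 7282 with a median of 4287. The highest library was mouse 5 of the sedentary lineage and the next was mouse 6 of the exercised lineage, and all other libraries lay at or below 4296. The groups overlapped, and 5 of the 6 exercised-lineage mice had less than the sedentary median. The means were 3915 ± 900 and 4418 ± 1510 (SD, n = 6 each). The log2 difference, exercised minus sedentary lineage, was -0.15 (SE 0.20, 95% confidence interval -0.58 to 0.29, limma adjusted p = 0.806). Without sedentary mouse 5 it was 0.01. These values rest on 2739 to 8841 reads per library.

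Mir-1-P3_3p (Mir206) ran from 34.1 to 91.8 normalized counts in the exercised lineage with a median of 55.0, and from 44.1 to 158 in the sedentary lineage with a median of 62.2. The same libraries were highest, with 158 in sedentary mouse 5 and 91.8 in exercised mouse 6. The third was sedentary mouse 1 with 73.1, and the lowest was exercised mouse 4 with 34.1. The ranks were mixed between the lineages, and 3 of 6 exercised-lineage libraries lay on each side of the sedentary median. The means were 57.6 ± 21.6 and 74.9 ± 42.1 (SD, n = 6 each). The log2 difference was -0.32 (SE 0.31, 95% confidence interval -0.99 to 0.36, limma adjusted p = 0.685), and -0.07 without sedentary mouse 5. With 25 to 192 reads per library, counting error alone is wide: the exact Poisson interval of the value of 34.1 ran from 22.1 to 50.4, and that of 158 from 137 to 182. Such intervals cover counting error only, since reads without molecular identifiers are not separate molecules.

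Mir-133 3p, which acts beside Mir-1 in muscle precursor growth, ran from 39.6 to 91.8 normalized counts in the exercised lineage with a median of 42.0. In that lineage 5 libraries lay between 39.6 and 45.3, and mouse 6 stood apart at 91.8. In the sedentary lineage it ran from 31.0 to 89.0 with a median of 46.8, and mice 5 and 4 were highest with 89.0 and 72.8. The means were 50.2 ± 20.5 and 54.0 ± 22.4 (SD, n = 6 each). The log2 difference was -0.08 (SE 0.28, 95% confidence interval -0.69 to 0.52, limma adjusted p = 0.959). It was 0.08 without sedentary mouse 5 and -0.27 without exercised mouse 6, and 0.00 after scaling to equal totals or to equal upper quartiles. The counting interval of exercised mouse 6 (74.0 to 112.5) did not overlap that of any other exercised-lineage library, whose upper bounds lay between 52.6 and 60.1.

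Mir-499_5p, the Myh7b miRNA, differed from the other muscle arms in how it was spread over the libraries. It ran from 154 to 199 normalized counts in the exercised lineage with a median of 172, and from 113.3 to 173 in the sedentary lineage with a median of 148. All 6 exercised-lineage libraries lay above the sedentary median, while 3 of them lay below the highest sedentary library. The means were 175 ± 18.3 and 147 ± 20.8 (SD, n = 6 each). The log2 difference was 0.25 (SE 0.12, 95% confidence interval 0.00 to 0.50), with an unadjusted limma p of 0.0489 and a limma adjusted p of 0.532 over 474 arms. An exact permutation test over all 924 assignments of the 12 libraries gave an unadjusted two-sided p of 0.0346. The difference did not pass the adjusted threshold of 0.05. It stayed between 0.18 and 0.30 with each library left out in turn.

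**Figure D1:**
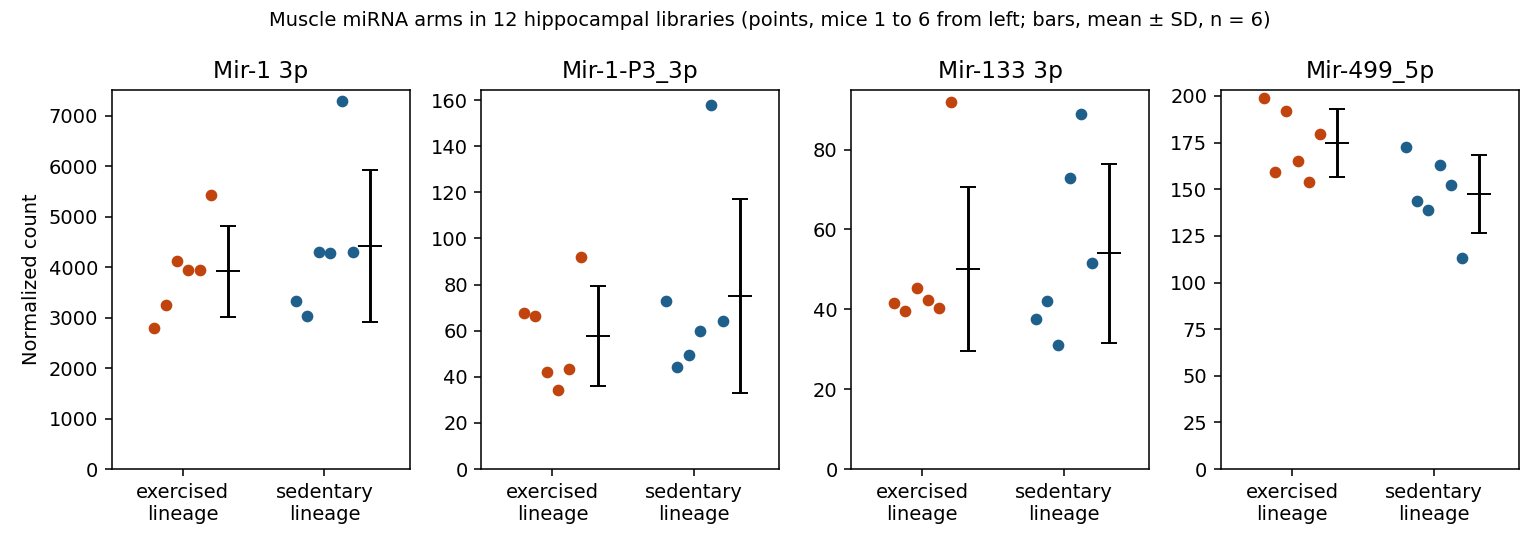
Normalized counts of the 4 muscle arms (vertical axes from 0, 1 panel per arm) in the exercised and sedentary lineages. Each point is 1 mouse and bars give the mean ± SD (n = 6). Sedentary mouse 5 is highest for Mir-1 3p (7282) and Mir-1-P3_3p (158), exercised mouse 6 is highest for Mir-133 3p (91.8), and Mir-499_5p is spread between 113.3 and 199.

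No muscle arm was called between the lineages. With limma on log2(value + 1), 0 of 474 arms had an adjusted p below 0.05 (0% of arms tested), with 0.532 as the smallest adjusted p. Before adjustment, 34 arms (7.17% of those tested) had a p below 0.05, or 39 when the fit had no mean-variance trend. That number ran from 14 without exercised mouse 6 and sedentary mouse 5 together (17 without exercised mouse 6 alone) to 57 under upper-quartile scaling, 52 of them above 0. Of the muscle arms, 1 of 4 (Mir-499_5p) was below that unadjusted level. The log2 difference lay below 0 for 3 arms and above 0 for 1, with a median of -0.11. Over all 474 arms the median was -0.001, and 49.8% lay above 0. The summed share of the muscle arms was 515 ± 93.7 ppm for exercised-lineage and 549 ± 196 ppm for sedentary-lineage mice (SD, n = 6 each). The difference was -33.6 ppm (exact permutation p = 0.766, two-sided). It was 42.1 without sedentary mouse 5 and -69.7 without exercised mouse 6. In bulk tissue, the share of cells that hold these miRNAs and their level per cell cannot be told apart.

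**Figure D2:**
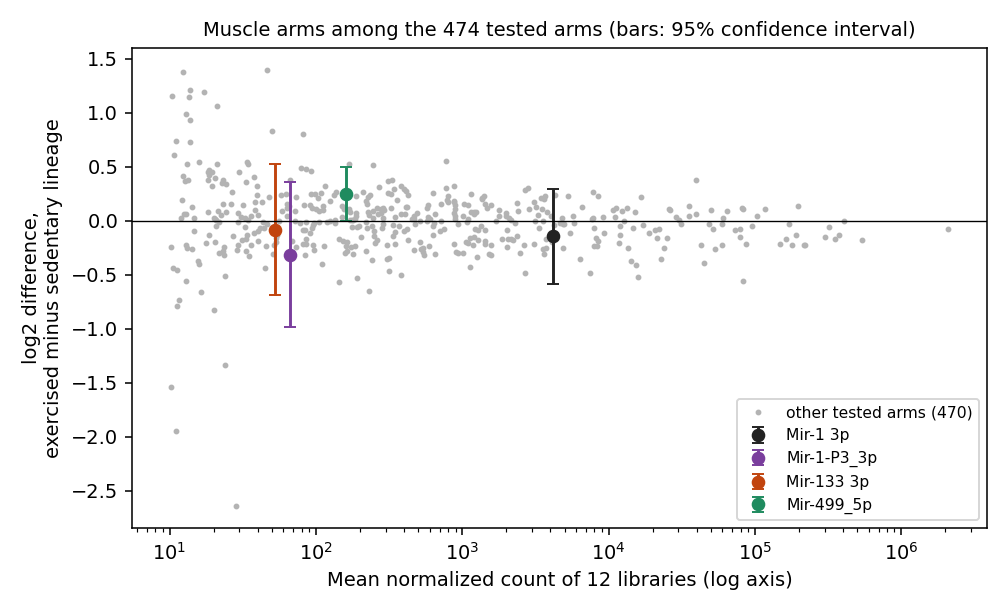
Log2 difference between the lineages (vertical axis) against mean normalized count of the 12 libraries (horizontal axis, log scale) for all 474 tested arms. Coloured points are the 4 muscle arms with 95% confidence intervals. Those of Mir-1 3p, Mir-1-P3_3p and Mir-133 3p span 0, and that of Mir-499_5p runs from 0.00 to 0.50.

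The direction of the difference rested on single libraries for Mir-1 3p and Mir-133 3p and not for Mir-499_5p. With each of the 12 libraries left out in turn, the log2 difference ran from -0.25 to 0.01 for Mir-1 3p and from -0.27 to 0.08 for Mir-133 3p, which was also above 0 without sedentary mouse 4 (0.02). For Mir-1-P3_3p it ran from -0.46 to -0.07. In these 3 arms the lowest value came without exercised mouse 6 and the highest without sedentary mouse 5. With both of these libraries left out, a choice made after the values were seen, the differences were -0.09 for Mir-1 3p, -0.22 for Mir-1-P3_3p, -0.11 for Mir-133 3p and 0.25 for Mir-499_5p.

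**Figure D3:**
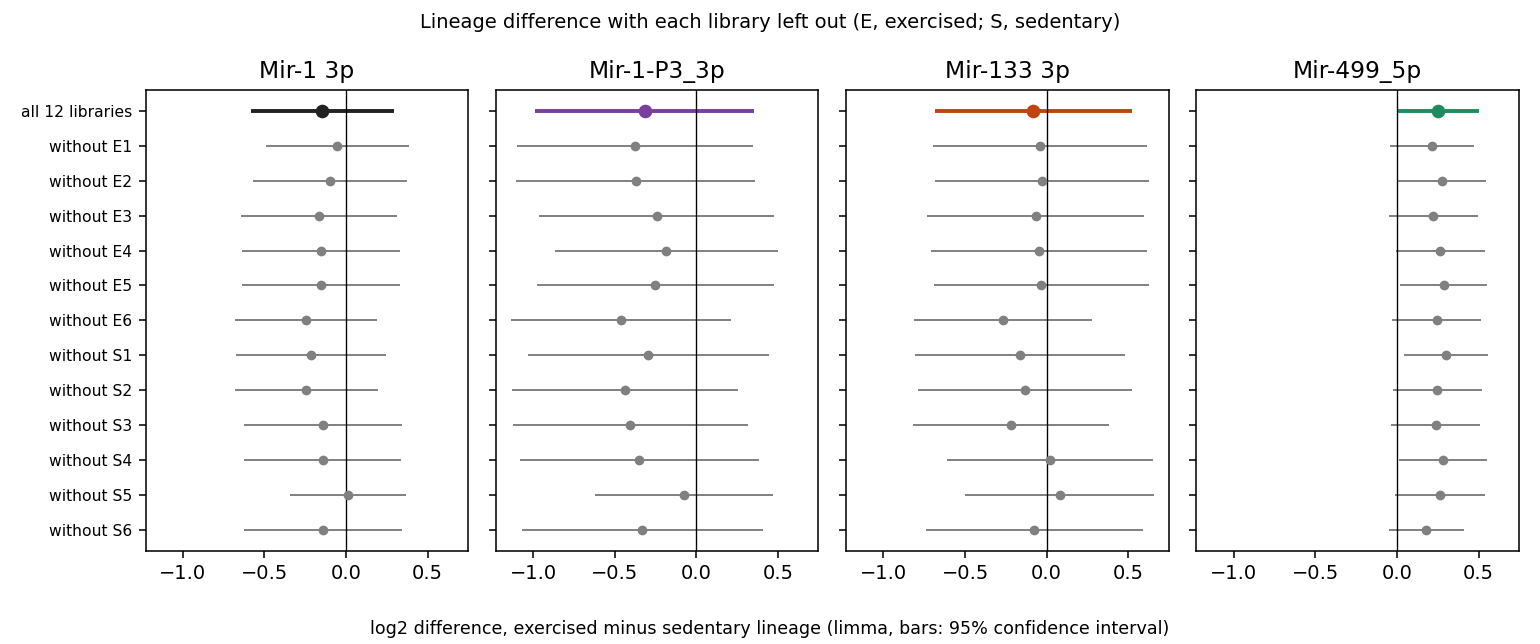
Log2 difference, exercised minus sedentary lineage (horizontal axis), with all 12 libraries (coloured) and with each library left out (grey). Bars are 95% confidence intervals from limma. The points shift most without exercised mouse 6 (E6) and sedentary mouse 5 (S5), except for Mir-499_5p, whose points stay between 0.18 and 0.30.

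Beyond the lineages, Mir-1 3p, Mir-1-P3_3p and Mir-133 3p were high in the same libraries. Exercised mouse 6 and sedentary mouse 5 held the highest and the next highest value of each of these 3 arms. For Mir-1-P3_3p the counting intervals of exercised mouse 6 (74.0 to 112.5) and sedentary mouse 1 (55.8 to 94.0) overlapped. For Mir-133 3p those of sedentary mouse 5 (73.0 to 107.4) and sedentary mouse 4 (57.7 to 90.6) overlapped. Relative to the median of the 12 libraries, sedentary mouse 5 was higher by 0.85 log2 for Mir-1 3p, 1.35 for Mir-1-P3_3p and 1.08 for Mir-133 3p. Exercised mouse 6 was higher by 0.43, 0.56 and 1.12. In the same libraries Mir-499_5p stood at -0.08 and 0.16 log2 from its median. Sedentary mouse 4 was high for Mir-133 3p (0.79) but near the median for Mir-1 3p (0.08) and Mir-1-P3_3p (-0.05).

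**Figure D4:**
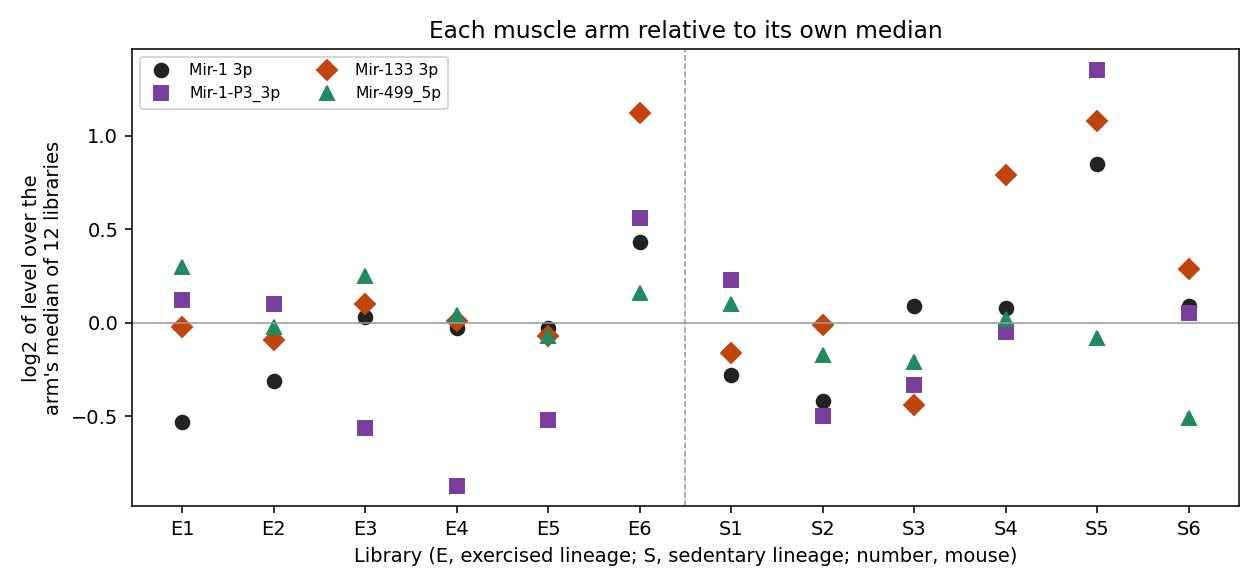
Level of each muscle arm over its own median of 12 libraries (vertical axis, log2) in every library (horizontal axis). Mir-1 3p, Mir-1-P3_3p and Mir-133 3p all lie above 0.4 in E6 and above 0.8 in S5, while Mir-499_5p lies near 0 in both.

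The arms differed in their spread among libraries. The highest library exceeded the lowest by 4.63-fold for Mir-1-P3_3p, 2.96-fold for Mir-133 3p, 2.61-fold for Mir-1 3p and 1.76-fold for Mir-499_5p. The coefficient of variation over the 12 libraries was 50.05%, 39.5%, 29.1% and 14.6% in the same order, where the median of the 474 tested arms was 20.0%. Mir-499_5p varied less than Mir-1 3p although it had far fewer reads, at most 237 per library.

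Across libraries, Mir-1 3p and Mir-133 3p were correlated by Pearson's r, while the rank correlation missed the threshold. On log2(value + 1) over 12 libraries, r was 0.74 (permutation p = 0.00643, 0.0193 adjusted over 3 pairs of arms) and Spearman's rho was 0.56 (permutation p = 0.0636, adjusted 0.191). Within the lineages r was 0.79 in the exercised and 0.71 in the sedentary one (n = 6 each). On residuals from the lineage means it was 0.74. Without the 2 libraries farthest from the median of Mir-1 3p (exercised mouse 1 and sedentary mouse 5) it was 0.64 (permutation p = 0.0482). Without exercised mouse 6 and sedentary mouse 5, r was 0.29 (permutation p = 0.436). These libraries are the highest on both measures and were chosen after the values were seen. Leaving them out narrows both ranges, so this lower r cannot show what the relation rests on. Libraries of a stem may be related, and all values of a library share its size factor.

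**Figure D5:**
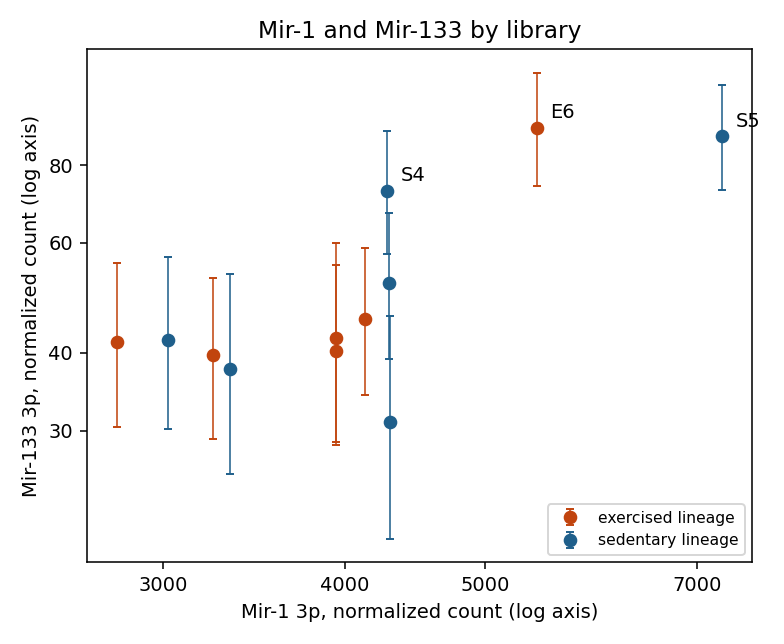
Mir-133 3p (vertical axis) against Mir-1 3p (horizontal axis), both as normalized counts on log axes, 1 point per library. Bars are exact Poisson 95% intervals of Mir-133 3p (counting error only). E6 and S5 lie high on both axes, and S4 is high for Mir-133 3p only.

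No correlation of these arms with Mir-499_5p passed the threshold. For Mir-1 3p with Mir-499_5p r was -0.19 (permutation p = 0.553, adjusted 0.803) and rho was -0.29 (permutation p = 0.356, adjusted 0.534). For Mir-133 3p with Mir-499_5p r was 0.08 (permutation p = 0.803, adjusted 0.803) and rho was 0.11 (permutation p = 0.733, adjusted 0.733). Without the 2 libraries farthest on the first measure, r was 0.10 and -0.03. Without exercised mouse 6 and sedentary mouse 5 it was -0.41 (permutation p = 0.237) for Mir-1 3p with Mir-499_5p. The pairs with Mir-1-P3_3p were added after the values were seen and adjusted over 6 pairs. Mir-1-P3_3p with the shared Mir-133 3p row gave an r of 0.67 (permutation p = 0.0167, adjusted 0.0501) and a rho of 0.23 (permutation p = 0.472, adjusted 0.708), with an r of 0.13 (permutation p = 0.744) without exercised mouse 6 and sedentary mouse 5. Mir-1 3p with Mir-1-P3_3p gave an r of 0.58 (permutation p = 0.0512, adjusted 0.102) and a rho of 0.24 (permutation p = 0.445, adjusted 0.708), with an r of 0.12 without sedentary mouse 5 and -0.33 (permutation p = 0.344) without both libraries. Mir-1-P3_3p with Mir-499_5p gave an r of 0.01 (permutation p = 0.966, adjusted 0.966).

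By submitter code, the libraries S411 to S413 held more Mir-133 3p than the other sedentary libraries, with values of 51.7 to 89.0 against 31.0 to 42.0 normalized counts. Mir-1 3p stood at 4280 to 7282 in the S41 and 3023 to 4296 in the S11 libraries, and overlapped. In the exercised lineage the ranges of Mir-133 3p overlapped, 39.6 to 45.3 in the R31 and 40.3 to 91.8 in the R41 libraries. Among the muscle arms, only Mir-133 3p in the sedentary lineage was separated by stem. With 3 libraries per stem, whether this separation exceeds chance was not tested, nor how many other arms show it. The consensus correlation of libraries within a stem, from the fit with stem as a random block, was -0.004. Without the S41 libraries the log2 difference between the lineages was 0.37 for Mir-133 3p and 0.13 for Mir-1 3p, and without the S11 libraries it was -0.53 and -0.42. These differences had limma adjusted p between 0.742 and 0.872.

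Arms outside the muscle set with the most similar pattern were taken as the 3 with the highest Pearson r over the 12 libraries among 470 tested arms, as a description. For Mir-1 3p they were the endothelial Mir-126 3p arm (r 0.83), Mir-34-P1_5p (0.79) and Mir-1251_5p (0.78). For Mir-133 3p they were Mir-1251_5p (0.78), the Mir-199 3p arm, known from mesenchymal cells (0.74), and Mir-34-P1_5p (0.60). Without exercised mouse 6 and sedentary mouse 5, r was 0.85 between Mir-1 3p and Mir-126 3p and 0.71 between Mir-133 3p and Mir-199 3p. It was between -0.12 and 0.47 for the pairs with Mir-34-P1_5p and Mir-1251_5p. All these arms were picked for a high r over the 12 libraries, which include those kept here, so these values are no separate check. For Mir-499_5p the most similar were Mir-154-P20-v2_3p (0.83), Mir-491_5p (0.79) and Mir-337_3p* (0.77, listed at 0 in the library where it was lowest). None of these was among the 3 arms listed for Mir-1 3p or for Mir-133 3p. How often such short lists from 470 arms would share an arm by chance was not tested.

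Markers of other cell types were read in the same libraries. The endothelial arms of Mir-126 and Mir-139 summed to 115057 to 154145 normalized counts in exercised-lineage and 121413 to 144885 in sedentary-lineage mice, and were highest in exercised mouse 6 (154145) and next highest in sedentary mouse 5 (144885). These are the libraries highest in Mir-1 3p, Mir-1-P3_3p and Mir-133 3p. The endothelial sum of sedentary mouse 5 was close to others, however. Exercised mice 4 and 5 had 144191 and 143114, and sedentary mouse 6 had 141913. The smooth muscle and mural arms of Mir-143 and Mir-145 summed to 225290 to 575934 and 246034 to 617117, and those libraries ranked 3 and 5 of 12. The mesenchymal arms of Mir-199 and Mir-214 summed to 589 to 1165 and 692 to 964, with ranks 1 and 4. The oligodendrocyte arms of Mir-219 and Mir-338 ranked 3 in exercised mouse 6 and 2 in sedentary mouse 5, and the other striated muscle arms (Mir-378 and Mir-486) ranked 2 and 3. The sum of Mir-378 and Mir-486, mostly Mir-378_3p, differed little among libraries. It was 24301 and 23681 in these libraries, 23430 in sedentary mouse 3, and 21083 to 25361 over all 12. The liver miRNA Mir-122_5p, a marker of tissue from outside the brain, was lowest in exercised mouse 6 (62.8 normalized counts) and ranked 4 of 12 in sedentary mouse 5. The choroid plexus arms ranked 11 and 5, the erythroid arms 9 and 2, and the neuron arms 7 and 9. The part of these cell types in the levels of the muscle arms was not tested.

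Other miRNAs known from striated muscle also had no called arm. Of Mir-378 and Mir-486, 4 arms were tested, with 1 above 0, 3 below and a median log2 difference of -0.05. Mir-378_3p, from an intron of the metabolic coactivator gene Ppargc1b, averaged 21691 ± 1192 normalized counts in exercised-lineage mice and 22792 ± 984 in sedentary-lineage mice (SD, n = 6 each). Its log2 difference was -0.07 (SE 0.07, limma adjusted p = 0.669). Mir-486_5p, found in muscle and in red cells, stood at 479 ± 61.3 against 550 ± 69.8 (log2 difference -0.20, SE 0.11, limma adjusted p = 0.532). The summed level of these arms, mostly Mir-378_3p, ran from 21083 to 24301 in exercised-lineage and from 22494 to 25361 in sedentary-lineage mice. Relative to its level, the range of this sum was far narrower than that of the muscle arms. The Mir-486 arms spread more, from 393 to 625 for Mir-486_5p and from 0 to 21.3 for Mir-486_3p* over the 12 libraries. Mir-208 is not the first name of any row of the deposited table, so it could not be analysed. In the endothelial list 2 of 4 arms lay above 0 (median -0.02), in the smooth muscle and mural list 0 of 4 (median -0.19) and in the mesenchymal list 2 of 5 (median -0.28), with 0 called in each.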

How the data were processed

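Small RNA was sequenced from 12 hippocampi, 1 library per mouse. The labels' protocols name a Qiagen miRNA kit for extraction and an NEBNext kit for small RNA libraries. The authors deposited a signal that is never negative, namely reads of a miRNA arm over a size factor for the library. Tools named in the submitters' processing notes are Bowtie 1.3.0 and DESeq2, with build mm10. How reads with mismatches or several loci were handled is not given in the sources used here. Although the columns are headed raw, 100% of values in each library are whole multiples, within 0.01, of 1 step per library. That step was taken as 1 read to give depth (6862623 to 10219856) and counting intervals. The smallest value stood for 2 to 6 reads, so the read numbers are inferred, and no count model was fitted. Over 66 library pairs, chi-square per degree of freedom was 68.8 or more, so no library repeats another.

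Lineages were compared with limma 3.58.1 in R 4.3.3 (mean-variance trend) on log2(value + 1), over 474 arms with a mean of at least 10, with Benjamini-Hochberg adjustment and a threshold of 0.05. The log2 scale with a pseudocount understates differences of low values. The fit was also run on simulated data with known changes, and how many of them it recovered is not given here. Summed shares were compared with exact permutation tests and correlations with 100000 permutations (NumPy 2.4.6). Members, lists and tests were chosen with earlier results of these data known. Named beside the members were the 3 most similar arms of each family and the lists' most abundant arms. P-values count each mouse as 1 sample. Sequences came from RefSeq (GRCm38.p6) and positions from GENCODE M21 (mm10).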

Additional observations from a re-analysis of the deposited data

Results flagged for a closer look

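Among 10 sets of 6 values looked at (the 4 muscle arms and their summed share in each lineage), 5 held a library far from the others by Dixon's test, where chance gives about 1 in 20. In the sedentary lineage, mouse 5 lay far above the next library for Mir-1 3p (7282 against 4296 normalized counts), for Mir-1-P3_3p (158 against 73.1) and for the summed share (927 against 563 ppm). In the exercised lineage, mouse 6 lay far above the next for Mir-133 3p (91.8 against 45.3) and for the summed share (696 against 533 ppm). The summed share is mostly Mir-1 3p, so these are not 5 separate findings. Sedentary mouse 5 was also the library with 14946 normalized counts of Mir-8-P1a_3p. The part of other cell types in these values was not tested.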

How the results depend on the processing

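No muscle arm passed the adjusted threshold under any of 28 alternatives (lowest limma adjusted p 0.41, for Mir-499_5p under upper-quartile scaling), and 0 arms of the table were called under any of them. Of the recomputed differences, 10 changed sign. Mir-1 3p was 0.05 without the R31 and 0.13 without the S41 libraries, and -0.25 to 0.01 with each library left out. Mir-1-P3_3p was 0.00 without the S41 libraries (-0.46 to -0.07 with each left out). Mir-133 3p was 0.00 under scaling by totals and by upper quartile, which moved the median of all arms by under 0.1, 0.09 without R31 and 0.37 without S41 (-0.27 to 0.08). Mir-499_5p kept its sign under all 28 (0.18 to 0.30 with each left out). The summed share difference was 82.7 ppm without S41 and 5.95 without exercised mouse 6 and sedentary mouse 5 (-69.7 to 42.1 with each left out). The correlation of Mir-1 3p with Mir-133 3p was 0.56 by rank and 0.29 without those libraries, with permutation p of 0.0636 and 0.436 (0.60 to 0.85 with each left out, the lowest without sedentary mouse 5). That of Mir-1 3p with Mir-499_5p was 0.10 without the 2 farthest libraries and 0.01 under scaling by totals, and -0.41 without exercised mouse 6 and sedentary mouse 5 (-0.30 to 0.02 with each left out). That of Mir-133 3p with Mir-499_5p was -0.03 without the 2 farthest libraries, which are the same 2 libraries highest in Mir-1 3p (-0.07 to 0.17). The cause of these changes was not tested.

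With the mouse number as a replicate block, the differences were -0.15, -0.32, -0.08 and 0.25 for Mir-1 3p, Mir-1-P3_3p, Mir-133 3p and Mir-499_5p, and 0 arms were called (16 with an unadjusted p below 0.05, against 34 without the block). Same-numbered mice share only a number: the correlations of their deviations ran from -0.174 to 0.151, and 1 of 6 mice correlated best with its own number. The count models planned for recovered reads (edgeR and DESeq2) were not run. All values were whole multiples of a step, but that step was inferred, since the smallest value of each library stood for 2 to 6 reads; whether such models would call other arms was not tested. Of the muscle arms, reads were fewest for Mir-133 3p (25 to 108 reads per library) and Mir-1-P3_3p (25 to 192).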
